A study of Mus musculus with 6 samples.

Results

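The cell division genes described here are 40 genes whose products copy DNA, condense and separate chromosomes, or divide the cell, and they were taken by symbol from the 53801 genes of a count table of adult mouse brain. The rule that picks them uses symbols and no measured value, but the list was drawn up with earlier results of these data known. The members fall by known role into Mki67 and Top2a, which act on chromosome structure, 9 genes of DNA replication, 12 cyclins, mitotic kinases and checkpoint genes, 8 genes of the kinetochore and chromosomal passenger complex, and 9 genes of the spindle and cytokinesis. RNA-seq compared one hemisphere of the brain of 3 Bahd1-WT (Bahd1+/+) mice with that of 3 Bahd1-KO (Bahd1-/-) mice, all of strain C57BL/6 and about 70 weeks old. BAHD1 is a chromatin protein that takes part in gene silencing, and the comparison asked how its absence alters the transcripts of the adult brain. The knockout was present in all cells from conception, the study notes perinatal deaths in this line, and the adult Bahd1-KO mice were therefore survivors. Each library came from a whole hemisphere, in which fewer dividing cells and less RNA of these genes per dividing cell cannot be told apart.

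Most transcripts of this kind accumulate only in cells that are passing through the cell cycle. The replication genes are transcribed from late G1 phase under E2F factors, and the mitotic genes in G2 phase and mitosis under the DREAM and B-MYB complexes, which reach promoters through a short element named the cell cycle genes homology region (CHR), often near CCAAT boxes. In the adult brain, the dividing cells are chiefly neural progenitors of the subventricular zone and the dentate gyrus, oligodendrocyte precursors and some glia, so that levels in a whole hemisphere are low. Several replication proteins, among them PCNA and the MCM subunits, are also used for DNA repair and can be found in cells that do not divide.

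Mouse promoters from RefSeq (GRCm38.p6), each covering 250 bases before to 50 bases after a gene start, matched 35 of the 40 members by symbol. Tpx2, Kif20a, Ccna2, Mcm4 and Aurkb had no entry. The CHR letters TTTGAA were searched on both strands and stood in the promoters of 20 of the 35 members (57.1%), against 17.9% of all 32851 promoters. Counted by promoter, as some genes have several, it was 22 of 38 for the members. The CCAAT box, searched as CCAAT on both strands, was matched for 27 of the 35 (77.1%), against 37.4% of all promoters. E2F sites, searched as TTCCCGC or TTCGCGC, and also TTGCCGC or TTGGCGC, on both strands, were matched for 10 of the 35 (28.6%), against 9.57% of all promoters. By role, the CHR letters were found in 1 of 8 replication promoters, both chromosome structure genes, 7 of 10 cyclin, kinase and checkpoint genes, 4 of 8 kinetochore and passenger genes and 6 of 7 spindle and cytokinesis genes. E2F letters were found in 5 of the 8 replication genes and in 0 of the 8 kinetochore and passenger genes. These matches are letters in a window and not measured binding.

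The windows of 30 bases below show the CHR letters (in capitals, TTCAAA where they lie on the opposite strand) for 5 members with lower and 2 members with higher mean levels in Bahd1-KO brains, so that the element can be seen in both kinds. Each reads 5′ to 3′ on the strand of its gene.
Mki67, chr7:135716460-135716489, minus strand: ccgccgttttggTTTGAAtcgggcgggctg
Top2a, chr11:99024195-99024224, minus strand: gctagataaaggTTCAAAtgaaactaggga
Prc1, chr7:80294434-80294463, plus strand: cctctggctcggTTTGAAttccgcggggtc
Kif11, chr19:37376351-37376380, plus strand: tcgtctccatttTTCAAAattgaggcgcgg
Cdk1, chr10:69352913-69352942, minus strand: ctttaccgcggcgagTTTGAAactgctggc
Mcm2, chr6:88898833-88898862, minus strand: agggctcagcctTTTGAAagctgtgggcgg
Cdc20, chr4:118437344-118437373, minus strand: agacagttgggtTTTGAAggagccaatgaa
In Cdk1, which drives entry into mitosis, the first of the capital letters lies 15 bases before the RefSeq start, and in Prc1, which bundles microtubules of the midzone, 30 bases before one RefSeq start and 5 bases before another. In Mcm2 it lies 70 bases and in Mki67 98 bases before the start.

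Deposited counts summed to between 42297150 and 93557948 per library. Levels are given as normalized CPM, that is, counts scaled to library size after the size was corrected by the TMM method of edgeR. The counts of Bahd1 were 1383, 844 and 1099 in the Bahd1-WT libraries and 0, 14 and 1 in the Bahd1-KO libraries, as labelled. Values of 3 libraries of a genotype are always given in the order of replicates 1, 2 and 3. Markers of neurons, astrocytes and mature oligodendrocytes summed to at least 5875, 1700 and 5090 CPM in every library. The 5 markers of lung epithelium, which brain should lack, summed to 108, 26.1 and 2.30 CPM in Bahd1-WT replicates 1, 2 and 3 and to between 0.506 and 1.42 CPM in the Bahd1-KO libraries, with all 5 lower in Bahd1-KO means. The 5 red cell markers summed to 92.6 CPM in Bahd1-KO replicate 2 and to between 10.8 and 30.3 CPM elsewhere. Among the single markers of the lists used, Ms4a1 (B lymphocytes), Elane (neutrophil precursors), Sftpa1 and Sftpb were at 0 counts in at least 1 library. The part of these foreign transcripts in the levels of the cell division genes was not tested.

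All 40 members were tested, as each had at least 10 counts over the 6 libraries, among 23975 genes that passed this filter. The members were low, with a median over members of 1.42 CPM and a range of mean levels from 0.131 CPM for Aurkb, a kinase of the chromosomal passenger complex, to 111 CPM for Anln. Per kilobase of exon, a scale on which genes can be compared, Anln (12.2 CPM per kb), Pcna (10.1), Mcm4 (5.21), Mcm6 (2.18) and Mcm7 (2.06) stood above all other members, which had at most 0.883 CPM per kb. Anln encodes anillin, a scaffold of the cytokinetic ring that is also present in myelinating oligodendrocytes, and the others are replication genes. At the depth of the libraries, 3 counts correspond to between 0.0315 and 0.0690 CPM, and for Ndc80, Bub1, Ccnb1 and Aurkb the counts per library were small enough that counting error matters.

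In Bahd1-KO brains 33 of the 40 members had a lower mean level than in Bahd1-WT brains and 7 a higher level, against a background of 53.4% of all genes tested with a log2 fold change (log2FC) below 0. Standard errors of a log2FC are given as SE. The members had a median log2FC of -0.58, beside -0.06 for all genes tested. No member passed the test: edgeR's quasi-likelihood test called 0 members lower and 0 higher at a Benjamini-Hochberg adjusted p-value under 0.05, when 0.00417% of all genes tested were called in each direction. At an unadjusted p-value under 0.05 there were 16 members on the lower side (background 12%) and 3 on the higher side (background 19.9%), and at an adjusted p-value under 0.1 there were 11 on the lower side (background 4.77%) and 0 on the higher side (background 14.7%). DESeq2's Wald test with its normal prior, which shrinks noisy fold changes, called 11 members lower (background 2.85%) and 0 higher (background 14.3%), and without the prior it called the same 11 members (background 2.87%). They were Mki67, Top2a, Ccna2, Bub1, Cenpe, Nuf2, Ndc80, Kif11, Nusap1, Prc1 and Hmmr. These genes were therefore called lower by DESeq2 and not by edgeR's quasi-likelihood test, and with the offset for GC content and length given below DESeq2 kept this call for 3 of them, Mki67, Ccna2 and Nusap1. All 3 Bahd1-KO libraries lay below all 3 Bahd1-WT libraries for 19 members (background 19.3%) and above them for 1 member (background 20.6%), the kinase gene Aurka. For the other 20 members the groups overlapped.

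**Figure D1:**
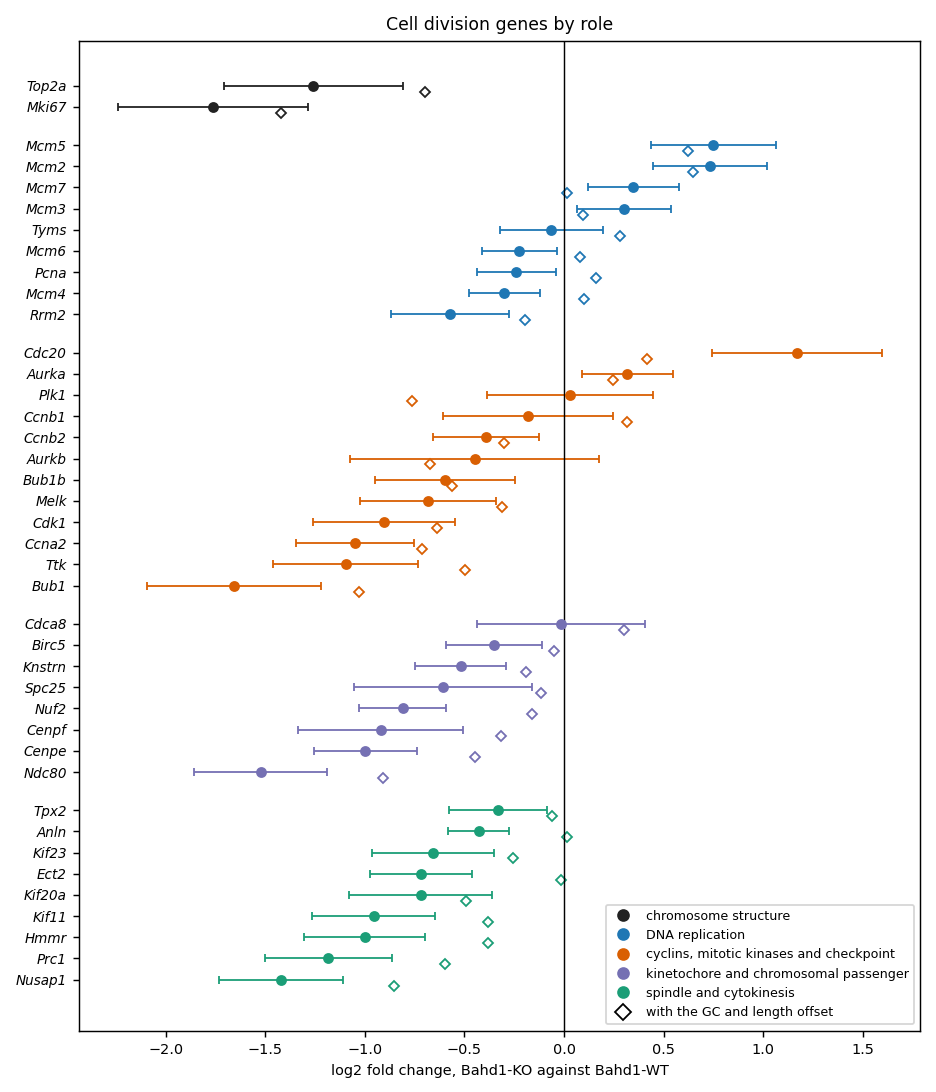
Log2 fold changes (log2FC, Bahd1-KO against Bahd1-WT, 3 libraries each) of the 40 cell division genes by role, with filled points and bars for the edgeR estimate and its SE and open diamonds for the estimate with the GC and length offset. The kinetochore and spindle genes all lie left of 0 without the offset, the replication genes on both sides, and most diamonds lie nearer to 0 than the filled points.

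Mki67 and Top2a had a wide spread within the Bahd1-WT group. Mki67 (chromosome 7, 135689784 to 135716361 on GRCm38) encodes Ki-67, which coats mitotic chromosomes and is the usual marker of cycling cells. Its level was 2.72, 1.83 and 6.39 CPM in Bahd1-WT replicates 1, 2 and 3 and 1.06, 0.735 and 1.45 CPM in Bahd1-KO replicates 1, 2 and 3, on 113 to 469 and 46 to 84 counts. Every Bahd1-KO library was below every Bahd1-WT library, but Bahd1-WT replicate 3 was 3.49 times as high as replicate 2. The log2FC was -1.76 (SE 0.48, edgeR adjusted p = 0.0649, DESeq2 adjusted p = 0.00232).

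Top2a encodes topoisomerase IIα, which untangles sister DNA molecules. It had 1.73, 1.17 and 3.93 CPM in the Bahd1-WT libraries and 0.735, 0.851 and 1.26 CPM in the Bahd1-KO libraries. Here the groups overlapped, since Bahd1-KO replicate 3 was above Bahd1-WT replicate 2, and the highest value was again that of Bahd1-WT replicate 3. The log2FC was -1.26 (SE 0.45, edgeR adjusted p = 0.105, DESeq2 adjusted p = 0.0348). Both genes also stand in a list of interferon-response genes that the study chose on these samples, so that their direction here is not independent evidence for that list.

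**Figure D2:**
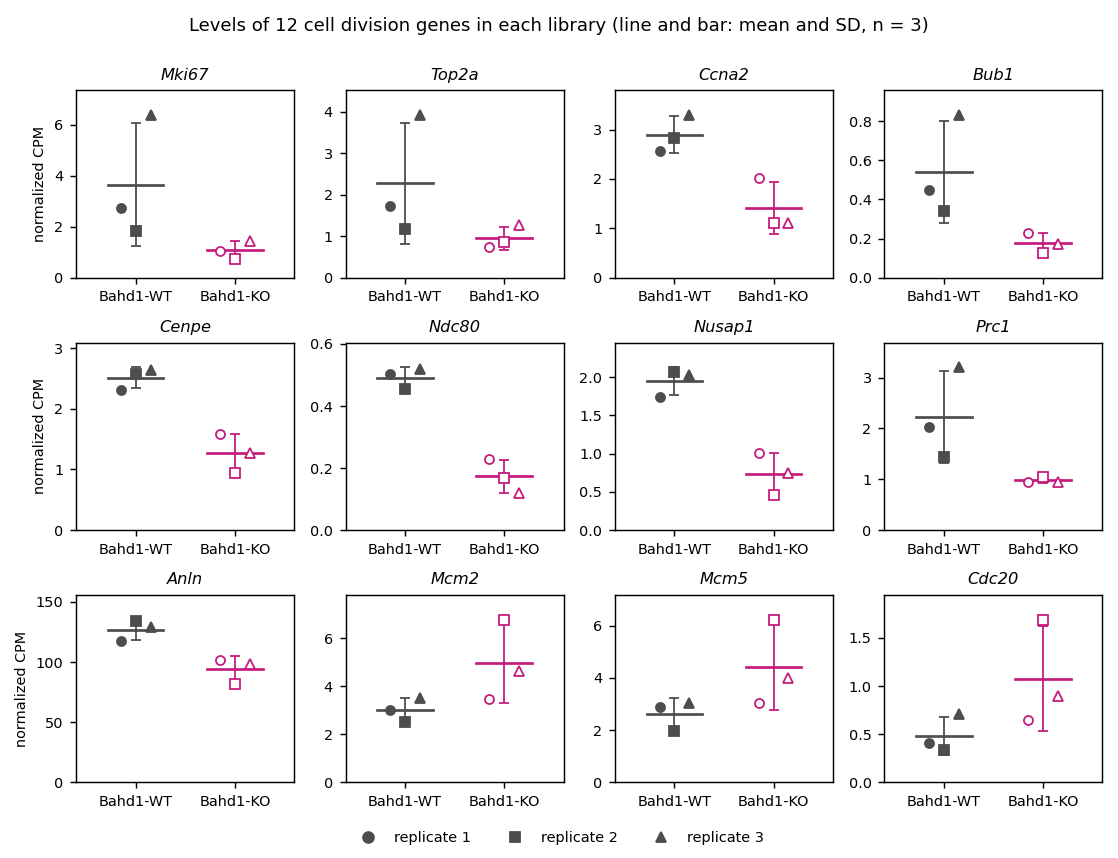
Normalized CPM of 12 cell division genes in each library, with a line and bar for the mean and SD (n = 3) and a symbol for each replicate number. Bahd1-WT replicate 3 is the highest library for Mki67 (6.39 CPM) and Top2a (3.93 CPM), and Bahd1-KO replicate 2 is the highest for Mcm2 (6.77 CPM), Mcm5 (6.23 CPM) and Cdc20 (1.69 CPM) and the lowest for Nusap1 and Cenpe.

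The 9 replication genes did not share a direction. 5 had negative and 4 had positive log2FCs, with a median of -0.06, close to that of all genes tested. Mcm2 to Mcm7 encode the 6 subunits of the helicase that unwinds DNA at replication origins, and they divided: Mcm2, Mcm3, Mcm5 and Mcm7 had higher means in Bahd1-KO brains (log2FCs from 0.30 to 0.75), Mcm4 and Mcm6 lower ones (-0.30 and -0.22). Mcm2 had 2.99, 2.49 and 3.49 CPM in the Bahd1-WT and 3.47, 6.77 and 4.65 CPM in the Bahd1-KO libraries. Bahd1-KO replicate 2 stood highest, and replicate 1 lay within the Bahd1-WT range. The log2FC of Mcm2 was 0.73 (SE 0.29, edgeR adjusted p = 0.125, DESeq2 adjusted p = 0.0645). Mcm5 had the same order of libraries, with 2.88, 1.96 and 3.05 CPM in Bahd1-WT and 3.03, 6.23 and 3.99 CPM in Bahd1-KO brains (log2FC 0.75, SE 0.31, edgeR adjusted p = 0.143). Pcna, the sliding clamp of DNA polymerase, was the highest of the group with 23.8, 28.3 and 26.7 CPM in Bahd1-WT and 26.4, 22.9 and 17.4 CPM in Bahd1-KO libraries. The groups overlapped, and its log2FC of -0.24 (SE 0.20) was about the size of its error. Rrm2 and Tyms, which make deoxynucleotides, had log2FCs of -0.57 and -0.06, and neither had separate groups.

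Of the 12 cyclins, mitotic kinases and checkpoint genes, 9 had negative and 3 had positive log2FCs (median -0.52). Ccna2 encodes cyclin A2, the partner of CDK2 and CDK1 from S phase to mitosis. It had 2.57, 2.83 and 3.30 CPM in Bahd1-WT and 2.02, 1.10 and 1.10 CPM in Bahd1-KO libraries, with no overlap. Its log2FC was -1.05 (SE 0.30, edgeR adjusted p = 0.0673, DESeq2 adjusted p = 0.01). Bub1 encodes a kinase that holds back anaphase until all chromosomes are attached, and had counts of 41, 21 and 61 (Bahd1-WT) against 10, 12 and 10 (Bahd1-KO). On the CPM scale this was 0.448, 0.340 and 0.832 against 0.230, 0.126 and 0.173, without overlap (log2FC -1.66, SE 0.44, edgeR adjusted p = 0.0643, DESeq2 adjusted p = 0.0178). Cdk1 and Ttk, a kinase of the same checkpoint as Bub1, also had separate groups, with log2FCs of -0.90 and -1.10, and neither was called by either tool.

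Bub1b, which encodes the checkpoint protein BUBR1, was the most abundant gene of the group in CPM. It had 4.50, 2.43 and 2.58 CPM in Bahd1-WT and 2.73, 1.30 and 2.30 CPM in Bahd1-KO libraries (log2FC -0.60, SE 0.35, edgeR adjusted p = 0.263). The groups overlapped, and Bahd1-WT replicate 1 stood apart from the other libraries. Bub1b lies 258786 bases from Bahd1 on chromosome 2, and Knstrn and Nusap1 lie 46420 and 693770 bases from it, so that 3 of the 40 members are near the targeted locus.

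The cyclin B genes Ccnb1 and Ccnb2 had log2FCs of -0.18 and -0.39, with SEs of 0.43 and 0.26. The 3 genes with positive values were Cdc20, Aurka and Plk1. Cdc20, an activator of the anaphase-promoting complex singled out here after its values were seen, had 0.404, 0.340 and 0.709 CPM in Bahd1-WT and 0.644, 1.69 and 0.898 CPM in Bahd1-KO libraries. Bahd1-KO replicate 1 lay below Bahd1-WT replicate 3, and replicate 2 stood highest (log2FC 1.17, SE 0.43, edgeR adjusted p = 0.108, DESeq2 adjusted p = 0.0509). Aurka, a kinase of the spindle poles, had a small difference (log2FC 0.32, SE 0.23) with all Bahd1-KO libraries above all Bahd1-WT libraries. The values of Plk1 and Aurkb (0.03 and -0.45, SEs 0.42 and 0.63) were within their errors.

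All 8 kinetochore and passenger genes had negative log2FCs, from -1.52 to -0.02 (median -0.71, background 53.4% negative). In the fit with the GC and length offset described below, 7 were negative and 1 positive (median -0.18, background 39.7% negative). Ndc80 and Nuf2 encode partners in the complex that grips microtubules at the kinetochore. Ndc80 (chromosome 17, 71496100 to 71526857) had counts of 46, 28 and 38 (Bahd1-WT) against 10, 16 and 7 (Bahd1-KO), or 0.503, 0.453 and 0.518 against 0.230, 0.168 and 0.121 CPM. Its Bahd1-WT libraries were close to each other and far from all Bahd1-KO libraries, and its log2FC of -1.52 (SE 0.33) had an edgeR adjusted p of 0.0634 and a DESeq2 adjusted p of 0.0142. Nuf2 was higher than Ndc80 per kilobase, at 0.625 against 0.0512 CPM per kb over all libraries. It had 4.49, 5.26 and 5.37 CPM against 3.36, 2.81 and 2.47 CPM (log2FC -0.81, SE 0.22, edgeR adjusted p = 0.0649, DESeq2 adjusted p = 0.00974). Its groups did not overlap either. Spc25, from the same complex, had overlapping groups and a log2FC of -0.61 (SE 0.45).

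Cenpe encodes the motor protein that moves chromosomes to the middle of the spindle. It had 2.32, 2.57 and 2.64 CPM in Bahd1-WT and 1.59, 0.935 and 1.28 CPM in Bahd1-KO libraries (log2FC -1.0, SE 0.26, edgeR adjusted p = 0.0638, DESeq2 adjusted p = 0.00737). As for Ndc80, the Bahd1-WT libraries were close together and above all Bahd1-KO libraries. Cenpf (-0.92, SE 0.41) had overlapping groups, and the passenger genes Birc5 and Cdca8 had log2FCs of -0.35 and -0.02, of which Birc5 had separate groups. Knstrn, which stabilizes kinetochore fibers, had separate groups and a log2FC of -0.52 (SE 0.23, edgeR adjusted p = 0.157).

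The 9 spindle and cytokinesis genes also all had negative log2FCs, from -1.42 to -0.33 (median -0.72, background 53.4% negative). With the GC and length offset, 8 were negative and 1 positive (median -0.38, background 39.7% negative). The groups were separate for 7 of the 9 genes (background 19.3%, before any account of GC content). Nusap1 encodes a protein that bundles microtubules around chromosomes and had 1.74, 2.07 and 2.03 CPM in Bahd1-WT and 1.01, 0.462 and 0.743 CPM in Bahd1-KO libraries. No Bahd1-KO library came near the lowest Bahd1-WT value (log2FC -1.42, SE 0.31, edgeR adjusted p = 0.0634, DESeq2 adjusted p = 0.00110). Prc1 had 2.02, 1.44 and 3.2 CPM in Bahd1-WT and 0.942, 1.04 and 0.950 CPM in Bahd1-KO libraries (log2FC -1.18, SE 0.32, edgeR adjusted p = 0.0647, DESeq2 adjusted p = 0.00965). Its Bahd1-KO libraries were close together, while Bahd1-WT replicate 3 was 2.22 times as high as replicate 2.

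Kif11 encodes the motor that pushes the spindle poles apart, and Hmmr a protein of spindle assembly. Kif11 had 2.55, 2.87 and 4.25 CPM against 2.25, 1.26 and 1.5 CPM (log2FC -0.96, SE 0.31, edgeR adjusted p = 0.0851, DESeq2 adjusted p = 0.0262). Hmmr had 0.830, 1.30 and 1.43 CPM against 0.712, 0.473 and 0.605 CPM (log2FC -1.0, SE 0.30, edgeR adjusted p = 0.0755, DESeq2 adjusted p = 0.0397). In both genes Bahd1-KO replicate 1 lay just below the lowest Bahd1-WT library. Kif20a, Kif23, Ect2 and Tpx2, which act in cytokinesis or in spindle assembly, had log2FCs between -0.72 and -0.33, and none was called by either tool.

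Anln had 118, 134 and 129 CPM in Bahd1-WT and 102, 82.2 and 98.7 CPM in Bahd1-KO libraries, without overlap (log2FC -0.43, SE 0.15, edgeR adjusted p = 0.104, DESeq2 adjusted p = 0.124). Its counts ran from 4439 to 10761 per library, so that counting error is small here. It was by far the highest member in CPM, and the 7 markers of mature oligodendrocytes, which also contain anillin, had a median log2FC of -0.08 with 4 negative and 3 positive values, and one of 0.58 with 2 negative and 5 positive values in the fit with the GC and length offset described below. Their summed level was 5330, 5895 and 5090 CPM in Bahd1-WT and 5285, 8052 and 6967 CPM in Bahd1-KO libraries, so that Bahd1-KO replicates 2 and 3 stood above all others. edgeR called 0 of these 7 markers (0 lower and 2 higher at an unadjusted p-value under 0.05), and DESeq2 called the myelin genes Mbp and Mag higher, with and without the offset. Without Anln and the replication genes, 27 of the remaining 30 members had negative values (background 53.4%), with a median of -0.72. With the offset 26 of these 30 did (background 39.7%), with a median of -0.38.

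The direction of a member went with the base composition of its transcript. Across the 40 members, the log2FC correlated with GC content (Pearson's r = 0.76, Spearman's rho = 0.73, n = 40 genes of the same 6 libraries, as a description), and over all 23940 genes tested with a GC content Spearman's rho was 0.74. The 20 members below the median GC content of the list all had negative values (median -0.94), and of the 20 at or above it 13 did (median -0.28). Among the 13 members with 40 to 44% GC, which hold most kinetochore and spindle genes, the median was -1.0, beside -0.47 for the 2987 genes of that band with a mean of at least 0.1 CPM, and 13 of 13 lay below the median of the band. From 44 to 48% GC the 16 members had a median of -0.39 beside -0.27, with 11 of 16 below. From 48 to 52% GC the 6 members had -0.04 beside 0.02, with 3 of 6 below, and from 52 to 57% GC the 5 members had 0.30 beside 0.58, with 4 of 5 below. Mki67, at 46.6% GC, was the member farthest below the other genes of its band.

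**Figure D3:**
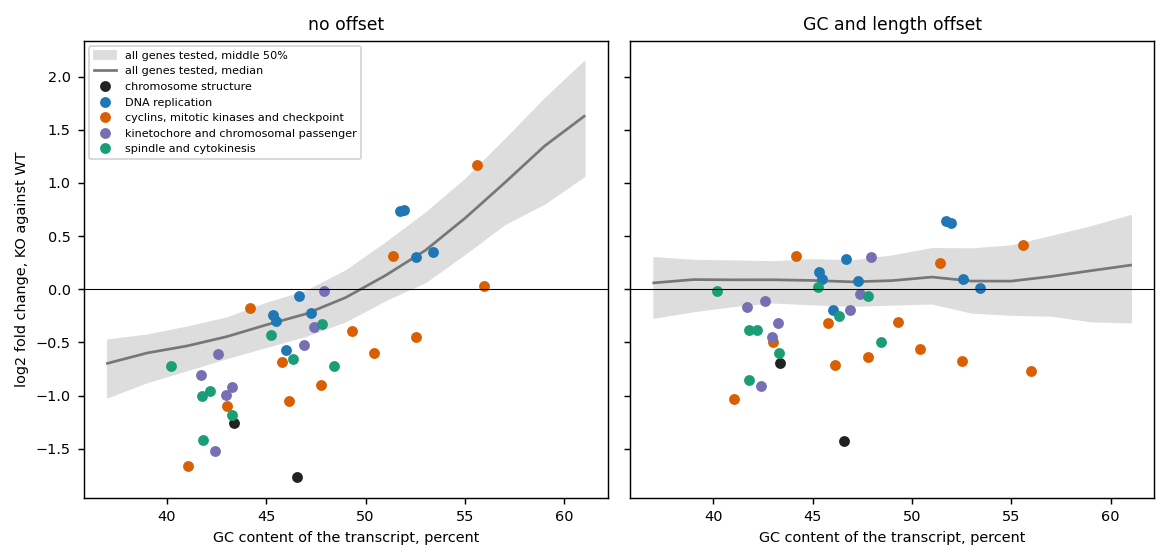
Log2 fold change against the GC content of the transcript in percent, without (left) and with (right) the GC and length offset, for the 40 cell division genes by role. The grey line and band show the median and middle 50% of all genes tested in steps of GC content, and on the left the members run along this trend and mostly below it, while on the right the trend is flat and the members with 40 to 44% GC stay mostly below 0.

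The trend with GC content was not the same in every library. Relative to the mean of the Bahd1-WT libraries on the log2 scale, genes below 44% GC had a median difference of -0.21, -0.83 and -0.47 in Bahd1-KO replicates 1, 2 and 3, and genes at or above 52% GC one of 0.32, 1.12 and 0.63. The medians of the members had the same order of the Bahd1-KO libraries as those of all genes in both bands: the 13 members below 44% had medians of -0.63, -1.14 and -1.0, and the 5 members at or above 52% had 0.13, 0.51 and 0.17. In the Bahd1-WT libraries the medians of all genes in both bands stayed between -0.17 and 0.15, while those of the members in Bahd1-WT replicate 3 were 0.28 and 0.47. The cause of this trend was not tested.

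The fit was repeated with an offset for each library, taken from a smooth curve of log2 CPM over transcript GC content and transcript length. With the offset, 27 of the 40 members had negative log2FCs (background 39.7%), with a median of -0.22 beside 0.09 for all genes tested. edgeR called 0 members lower and 0 higher at an adjusted p-value under 0.05 (background 0.00834% and 0.0125%), with 6 members lower (background 5.64%) and 2 higher (background 17.2%) at an unadjusted p-value under 0.05. DESeq2 with the offset called Mki67, Ccna2 and Nusap1 lower (3 members, background 1.93%) and Mcm2 higher (1 member, background 8.67%). The log2FC of Mki67 was -1.42 with the offset (SE 0.43, edgeR adjusted p = 0.101, DESeq2 adjusted p = 0.00861), that of Nusap1 -0.85 (SE 0.20, edgeR adjusted p = 0.0741, DESeq2 adjusted p = 0.0106), that of Ccna2 -0.71 (SE 0.22, edgeR adjusted p = 0.101, DESeq2 adjusted p = 0.0241) and that of Mcm2 0.65 (SE 0.23, edgeR adjusted p = 0.141, DESeq2 adjusted p = 0.0490). The other 8 of the 11 genes that DESeq2 called lower without the offset lost that call. Their edgeR log2FCs with the offset were -1.03 for Bub1, -0.91 for Ndc80, -0.70 for Top2a, -0.60 for Prc1, -0.45 for Cenpe, -0.38 for both Kif11 and Hmmr and -0.16 for Nuf2, and their DESeq2 adjusted p-values ran from 0.142 (Cenpe) to 0.677 (Nuf2). Plk1 moved away from 0, from 0.03 to -0.77. Other members came close to 0, among them Anln (0.02) and Ect2 (-0.02), and 8 of the 9 replication genes had positive values. The correlation of the members' log2FC with GC content was then 0.33 by both coefficients (n = 40, as a description).

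Within the Bahd1-WT group, replicate 3 had the highest level for 31 of the 40 members, while it was the highest Bahd1-WT library for 28.5% of all genes tested. The median difference of the members from the Bahd1-WT mean was -0.14, -0.15 and 0.24 on the log2 scale in Bahd1-WT replicates 1, 2 and 3, and -0.33, -0.58 and -0.62 in Bahd1-KO replicates 1, 2 and 3. Without Bahd1-WT replicate 3 the median log2FC of the members was -0.34 (29 of 40 negative) beside -0.05 for all genes, and with the offset in addition it was -0.02 (21 of 40 negative) beside 0.09. The size of the difference between genotypes therefore rested in part on this mouse, in which 24 of the 31 other members and 7 of the 9 replication genes had their highest Bahd1-WT level. Without Bahd1-KO replicate 1, edgeR's quasi-likelihood test called 10 members lower (background 10.3%) and 3 higher (background 19.8%), and without any other library it called 0.

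The 9 neuroblast markers summed to 183, 130 and 234 CPM in Bahd1-WT replicates 1, 2 and 3 and to 174, 96.0 and 84.6 CPM in Bahd1-KO replicates 1, 2 and 3. Within Bahd1-WT mice the sum had the order of Mki67 and Top2a. Within Bahd1-KO mice it did not, since the sum was lowest in replicate 3, where Mki67 and Top2a were highest. Of the single markers, 5 had their highest Bahd1-WT level in replicate 3 and 4 in replicate 1. 6 of the 9 had negative and 3 positive log2FCs (median -0.06), and with the offset 8 had negative and 1 a positive value (median -0.50). Without the offset 0 had separate groups and 0 were called by edgeR (2 lower and 0 higher at an unadjusted p-value under 0.05, and Dcx lower with DESeq2, which did not call it with the offset). Dcx, the marker of migrating neuroblasts, had 56.7, 36.6 and 88.7 CPM against 37.7, 17.5 and 21.0 CPM. The 7 markers of oligodendrocyte precursors summed to between 163 and 193 CPM in all 6 libraries, without an order by genotype in the sum. This sum hid opposite differences between markers, with 2 negative and 5 positive log2FCs (median 0.23, and 0.05 with the offset). edgeR called 0 of the 7 (1 lower and 2 higher at an unadjusted p-value under 0.05). DESeq2 called Cspg4 and C1ql1 higher and Vcan lower, all with separate groups, and with the offset it called none of Cspg4, C1ql1 and Vcan (adjusted p = 0.278, 0.608 and 0.639), but Olig2 lower (adjusted p = 0.00146). Lung epithelium markers were highest in Bahd1-WT replicate 1 and summed to near 2 CPM in Bahd1-WT replicate 3. The members had no single order in the Bahd1-WT libraries, with 2 highest in replicate 1, 7 in replicate 2 and 31 in replicate 3. Lymphocyte markers summed to between 2.46 and 4.0 CPM. The part of neuroblasts or of lung transcripts in the levels of the members was not tested.

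**Figure D4:**
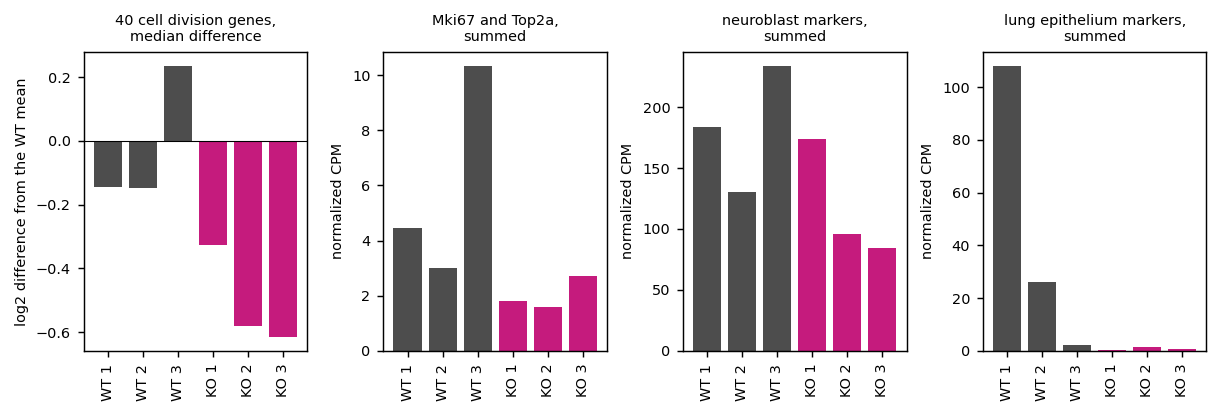
Values by library (WT, Bahd1-WT in grey; KO, Bahd1-KO in pink): the median log2 difference of the 40 members from the Bahd1-WT mean, and the summed normalized CPM of Mki67 with Top2a, of 9 neuroblast markers and of 5 lung epithelium markers. Bahd1-WT replicate 3 is the highest library in the first 3 panels, and Bahd1-WT replicate 1 in the last (108 CPM).

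Most members had negative values with and without the CHR letters. Of the 20 members with a match 16 had negative log2FCs (median -0.69), and of the 15 without one 12 did (median -0.35). The background was 53.4% negative, and the median GC contents were 45.8% and 46.0%. After the offset, the median log2FC was -0.35 for members with a match and -0.05 for those without one. The groups also differed by role, as only 1 of 8 replication genes held the letters. The part of role in the difference between the medians was not tested. Mcm2 and Cdc20, with positive values, hold the letters as Mki67 and Prc1 do in the windows printed above.

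Genes of the cell cycle outside the 40 were taken from 4 lists by function. The 22 other S phase genes had a median log2FC of -0.27 and the 38 other mitotic genes one of -0.37, with 15 and 24 negative values. edgeR called 0 of these 60 genes in either direction (15 lower and 2 higher at an unadjusted p-value under 0.05, with backgrounds of 12% and 19.9%), and DESeq2 called 7 lower and 2 higher (backgrounds 2.85% and 14.3%). Esco2, which fastens sister chromatids together in S phase, had a log2FC of -1.36 (SE 0.34), and Mcm10, a replication initiation factor, one of -0.90 (SE 0.25). Among mitotic genes the lowest p-values were those of the spindle motor gene Kif15 (-1.53, SE 0.38, DESeq2 adjusted p = 0.00673) and the spindle pole gene Aspm (-1.19, SE 0.36, DESeq2 adjusted p = 0.0381). With the offset, the medians of these lists were -0.08 and -0.04. Esco2 then had -0.53, Mcm10 -0.68, Kif15 -0.96 and Aspm -0.68, and DESeq2 no longer called Esco2, Kif15 or Aspm (adjusted p = 0.484, 0.0872 and 0.268). Of the 60 genes it then called the mitotic genes Zwint, Pttg1 and Cit higher (adjusted p = 0.00337, 0.00538 and 0.0292) and Ube2c lower (adjusted p = 0.0495), of which Cit was also called higher without the offset. With the offset edgeR gave 4 of the 60 genes lower and 5 higher at an unadjusted p-value under 0.05 (backgrounds 5.64% and 17.2%).

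The 8 cell cycle transcription factor genes had 3 negative and 5 positive values (median 0.27), and with the offset 5 negative and 3 positive ones (median -0.18). E2f1, an activator of replication genes, had 3.19, 2.85 and 3.12 CPM in Bahd1-WT and 4.23, 7.53 and 5.46 CPM in Bahd1-KO libraries, without overlap, and its log2FC of 0.91 (SE 0.25, edgeR adjusted p = 0.0664, DESeq2 adjusted p = 0.00865) was -0.10 with the offset. Lin54, the DREAM subunit that binds the CHR, had a log2FC of -0.52 (SE 0.22) and of 0.07 with the offset. Among the 15 G1 cyclins, kinases and inhibitors, 8 were negative and 7 positive (median -0.20), and with the offset 7 were negative and 8 positive (median 0.05). The cyclin D3 gene Ccnd3 had 7.40, 4.10 and 6.04 CPM against 10.8, 24.8 and 12.9 CPM (log2FC 1.47, SE 0.35, edgeR adjusted p = 0.0634, DESeq2 adjusted p = 0.000953, and 0.66 with the offset), and Rbl1, which encodes the pocket protein p107, had -0.65 (SE 0.21, DESeq2 adjusted p = 0.0366) and -0.05 with the offset.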

How the data were processed

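RNA-seq read counts were analysed for one brain hemisphere of 3 Bahd1-WT and 3 Bahd1-KO adult mice, grouped and numbered by their labels. Per the labels and the study's methods, the authors trimmed reads with cutadapt 1.11, aligned them to GRCm38 (STAR 2.5.0a, with Tophat2 also named), and deposited whole-number counts of exon reads on the sense strand from featureCounts 1.4.6-p3, without normalization. Reads were sequenced in technical replicates, deposited as 1 column per mouse.

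The 40 members and all lists were chosen with earlier results of these data known. A minimum of 10 counts over all libraries left 23975 of 53801 genes. The test was edgeR 4.0.16 quasi-likelihood (TMM, genotype only, R 4.3.3) with Benjamini-Hochberg adjustment over all genes tested. DESeq2 1.42.0 was an alternative. The GC and length offset used natural splines (5 and 3 degrees of freedom) fitted per library to 13283 genes above 1 on the log2 CPM scale, with GENCODE M21 transcripts. Per-kilobase values used the summed exon length of each gene. Differences from the Bahd1-WT mean added 0.1 CPM before the log2. Members given with every library were, in each role, the highest in CPM, the 2 with the lowest p, those called by an alternative on all 6 samples without offset, and Mki67 and Top2a. Cdc20 met none of these rules and was added after its values were seen. From each of the 4 lists outside the 40, the 2 genes with the lowest p were named. Depth limits the lowest members, and 3 counts were taken as the floor, for counting error only. Labels do not state litters, so p-values measure the spread between these mice. Scripts were tested on simulated counts.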

Additional observations from a re-analysis of the deposited data

How the results depend on the processing

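The number of members called depended on the test. Against 0 lower with edgeR's quasi-likelihood test, DESeq2 called 11 members lower with and without its prior (background 2.85% and 2.87% of all genes tested), edgeR's likelihood-ratio test called 10 (3.43%), a filter at a sum of 1 gave 7 (1.63%) and total counts 2 (0.571%). DESeq2 with the GC and length offset called 3 lower and 1 higher. The cause was not tested. Leaving out each library in turn gave 0 to 10 members called lower and 0 to 3 higher, all of them without Bahd1-KO replicate 1, and a median log2FC of the members from -0.74 (without Bahd1-WT replicate 1) to -0.34 (without Bahd1-WT replicate 3). DESeq2's size factors, upper-quartile factors, robust shrinkage and stricter filters called 0 members, with Aurkb left out by edgeR's filterByExpr. Upper-quartile factors moved the median of all genes to -0.20 and that of the members to -0.71.

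The median of the members was -0.22 with the offset in edgeR, -0.18 in DESeq2, -0.19 with the offset and the replicate block, and -0.0227 with the offset without Bahd1-WT replicate 3, an alternative chosen after seeing the data. In these 4 fits Pcna turned to 0.16, 0.15, 0.14 and 0.17 and Anln to 0.0171, 0.0167, 0.0154 and 0.0432. Same-numbered libraries did not deviate together (correlations of their deviations from -0.58 to -0.14, against -0.04 to 0.55 for libraries with different numbers). With 3 libraries per genotype, whose deviations depend on each other, these values cannot decide whether the numbers pair the mice. The replicate block called 0 members (12 lower and 1 higher at an unadjusted p under 0.05, background 6.68% and 15.1%), with a median of -0.56. Bahd1 kept its direction, with a log2FC from -10.3 to -7.23 when each library was left out, but its edgeR adjusted p was over 0.05 without Bahd1-KO replicate 3 or any Bahd1-WT replicate. A window of 150 bases before the start gave CHR letters in 57.1% of members against 11.2% of all promoters. Depth limits the members with few counts, chiefly Aurkb, Ccnb1, Ndc80 and Bub1.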
